A study of Mus musculus with 6 samples.

Results

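The 35 genes described here encode antioxidant enzymes, subunits of the NADPH oxidases and metallothioneins, and were chosen by name from a table of 24601 genes in which 2 records named Nnt were added together. Their poly(A) RNA was measured in 6 libraries of left ventricle from mice labelled wild type. Of these, 3 came from mice that had a sham operation and 3 from mice with transverse aortic coarctation (TAC), a narrowing of the aorta that loads the left ventricle with pressure, all taken 5 weeks after surgery. The labels name neither the strain, sex or age of the mice nor whether each library came from its own mouse. The spread that the p-values rest on is therefore that between libraries and may be technical. Of the 35 genes, 32 had a mean FPKM (read fragments scaled by transcript length and library size) of 1 or more and were among the 8794 genes tested. Gclc, Nox4 and Cybb lay under that limit.

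Superoxide is made by the respiratory chain and by NADPH oxidases, and superoxide dismutases turn it into hydrogen peroxide. Catalase, glutathione peroxidases and peroxiredoxins remove the peroxide, and the latter families are recharged by glutathione and thioredoxin, which in turn draw on NADPH. The transcription factor NRF2 raises many of these genes through the antioxidant response element (ARE), whereas metallothioneins, small cysteine-rich metal-binding proteins, are switched on by zinc through the metal response element (MRE). In the heart, whose mitochondria are abundant, the mitochondrial members of these families work beside cytosolic, endoplasmic reticulum and secreted relatives.

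The promoters of 4 genes described below are shown. They are those of Mt2 and Mt1, metallothionein genes that neighbour each other on chromosome 8. The others are those of Srxn1, the sulfiredoxin gene, and Gpx3, the gene of the secreted plasma glutathione peroxidase. Mt2 and Gpx3 passed the test, and Mt1 and Srxn1 did not. Each promoter is the RefSeq sequence for GRCm38.p6 from 250 bases before to 50 bases after the annotated start. It is printed 5′ to 3′ on the strand of the gene. The positions are chr8:94172368-94172667 on the plus strand for Mt2, chr8:94178839-94179138 on the plus strand for Mt1, chr2:152105274-152105573 on the plus strand for Srxn1 and chr11:54902604-54902903 on the plus strand for Gpx3. The GENCODE start of Mt2 lies near the end of its window. The window of Gpx3 lies inside that gene's annotated span, which begins at 54902453, so the bases before that position were not searched. The window of Mt1 ends at 94179138, inside that gene's annotated span of 94179082 to 94180327, so the bases after 94179138 were not searched. Capitals mark the letters of an ARE core (TGACNNNGC), an MRE core (TGCACNC or TGCGCNC) or an AP-1 site (TGAGTCA), searched on both strands.
Mt2: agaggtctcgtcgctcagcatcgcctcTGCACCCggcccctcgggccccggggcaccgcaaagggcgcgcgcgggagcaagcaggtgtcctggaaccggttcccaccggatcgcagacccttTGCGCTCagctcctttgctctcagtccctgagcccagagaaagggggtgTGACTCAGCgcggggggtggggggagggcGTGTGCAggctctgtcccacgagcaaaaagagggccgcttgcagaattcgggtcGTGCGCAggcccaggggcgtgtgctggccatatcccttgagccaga
Mt1: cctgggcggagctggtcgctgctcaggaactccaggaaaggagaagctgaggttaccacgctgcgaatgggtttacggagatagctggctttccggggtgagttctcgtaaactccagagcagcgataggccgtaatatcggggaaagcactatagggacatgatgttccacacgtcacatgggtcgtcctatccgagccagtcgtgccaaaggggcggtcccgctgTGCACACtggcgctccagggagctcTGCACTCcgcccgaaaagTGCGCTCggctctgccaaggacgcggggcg
Srxn1: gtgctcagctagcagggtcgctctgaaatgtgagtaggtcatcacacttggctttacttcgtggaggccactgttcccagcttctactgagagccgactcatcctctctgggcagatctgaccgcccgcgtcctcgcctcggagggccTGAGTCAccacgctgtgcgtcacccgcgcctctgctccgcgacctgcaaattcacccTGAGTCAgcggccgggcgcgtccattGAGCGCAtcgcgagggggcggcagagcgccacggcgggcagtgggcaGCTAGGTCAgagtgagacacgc
Gpx3: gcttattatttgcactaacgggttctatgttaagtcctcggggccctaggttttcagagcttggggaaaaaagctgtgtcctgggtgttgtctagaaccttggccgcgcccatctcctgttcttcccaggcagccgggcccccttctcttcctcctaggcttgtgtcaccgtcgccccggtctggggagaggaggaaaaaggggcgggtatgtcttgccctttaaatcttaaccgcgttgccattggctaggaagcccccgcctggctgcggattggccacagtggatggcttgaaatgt

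The Mt2 window held 4 MRE cores and 1 ARE core that overlaps an AP-1 site, and the Mt1 window held 3 MRE cores. The Srxn1 window held 1 ARE core, 1 MRE core and 2 AP-1 sites, and the Gpx3 window held none of the 3. Among all 32851 promoter windows of this length, 12.4% held an ARE core, 25.7% an MRE core and 5.20% an AP-1 site, 0.517% held 4 or more MRE cores, and an ARE core overlapped an AP-1 site in 149. RefSeq windows, 34 in all, were found for 28 of the 35 genes. These genes are counted once if any of their windows held a match, whereas the shares above are per window. An ARE core stood in the windows of 6 of the 28 genes (Mt2, Srxn1, Prdx1, Gclm, Sod1 and 1 of 3 Txnrd1 starts). An MRE core stood in those of 8 genes and an AP-1 site in those of 4. A match describes these letters only and does not show that a factor binds, and no match was tested against a change in level.

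Of the 32 tested genes, Mt2 and Gpx3 rose in TAC, none fell and 30 did not pass an adjusted p of 0.05 in edgeR's quasi-likelihood test. Over all 8794 tested genes 4.72% rose and 2.29% fell. Mt2 was 3.37-fold higher and Gpx3 2.0-fold higher. The median log2 fold change of the 32 was 0.19, and 22 of the 32 values were above 0, against a median of -0.01 and 4331 values above 0 over all tested genes. Once trends with GC content and length were taken out, the median of the 32 was 0.04. In CPM (counts divided by the library total, scaled by TMM), 8 of the 32 genes had all 3 TAC libraries above all 3 sham libraries and none had all 3 below. Over all tested genes those shares were 17.7% and 17.1%. Besides Mt2 and Gpx3, the 8 were Srxn1, Txn1, Txnrd1, Gpx8, Hmox1 and Sod3.

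**Figure D1:**
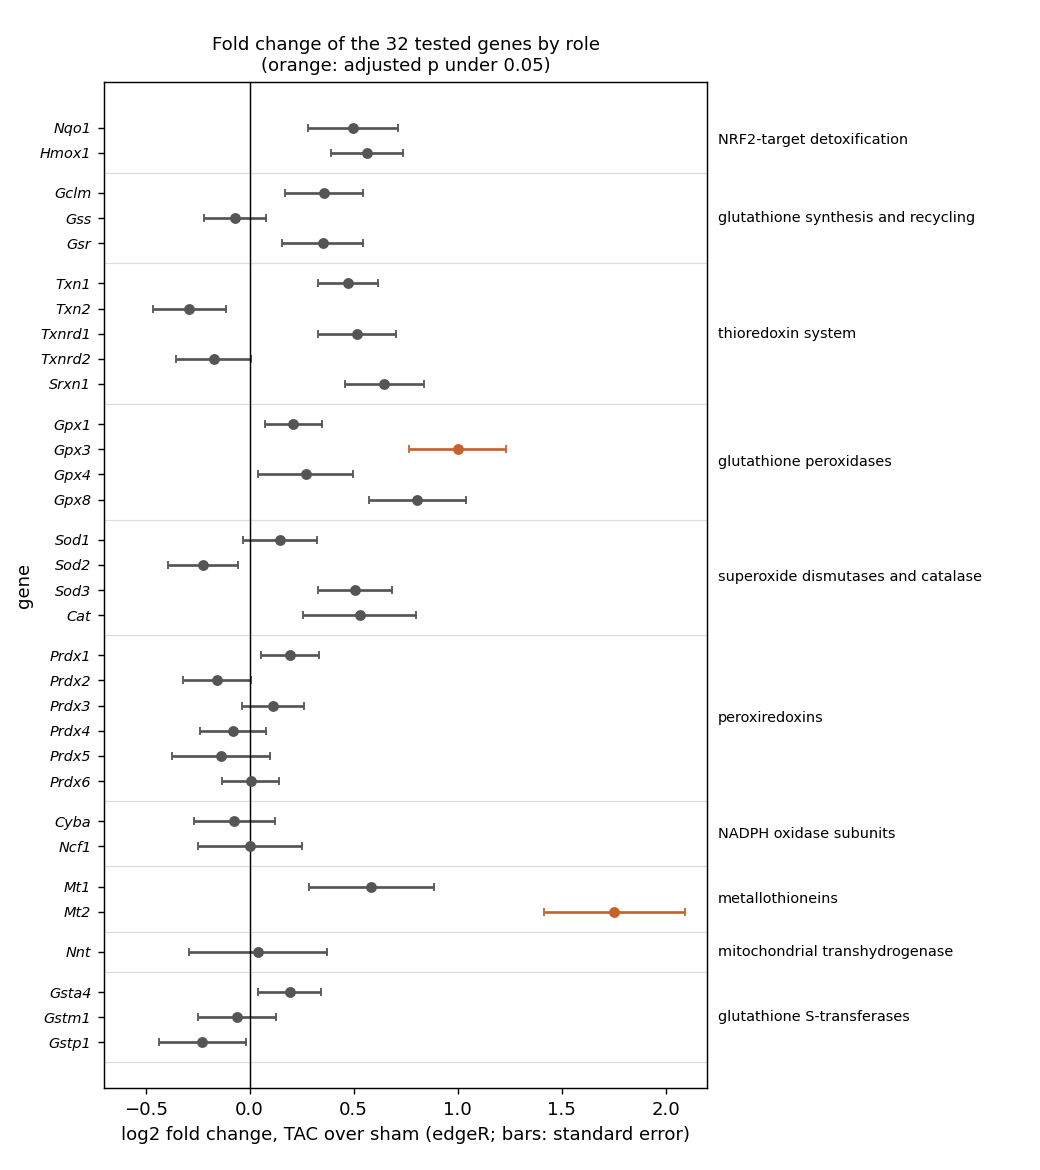
Log2 fold change of TAC over sham (x axis; points with bars of 1 standard error) for the 32 tested genes (y axis), in blocks by role, with genes that passed in orange. Mt2 at 1.75 and Gpx3 at 1.0 lie farthest right, and the peroxiredoxins lie between -0.16 and 0.19.

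These libraries summed to between 64023153 and 69992502 estimated counts. Of the calls over all tested genes, 67.4% were higher in TAC with edgeR and TMM and 68.8% with DESeq2's size factors within edgeR. They were 34.1% in limma on log2(FPKM + 1), which changes the test and the measure together and where the median of all genes was -0.13, and 52.1% once trends with GC content and transcript length had been taken out. Where libraries were compared in FPKM, 6 of the 32 genes lay wholly above sham (background 11.6%) and Txn2, Txnrd2, Sod2 and Prdx4 lay wholly below (background 25.4%). The summed level of 8 cardiomyocyte markers was 42642 CPM in TAC replicate 3 against 59566 and 61371 in the other TAC libraries, and 63060 to 69878 in sham. The markers did not move together: Myh6, Actc1, Myl2 and Tnni3, which carry the sum, were lowest of the 6 libraries in TAC replicate 3, whereas Ttn, Ryr2 and Pln were highest there and Tnnt2 was above every sham library. In every library the cardiomyocyte markers were the most abundant of the marker lists. Without TAC replicate 3, 5 of the 32 genes rose (Mt2, Gpx3, Srxn1, Txn1 and Sod3) and 815 genes rose and 893 fell over all.

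Metallothioneins bind zinc and copper and their thiols react with oxidants. Mt2 (chromosome 8, 94172664 to 94173568 in GRCm38, plus strand) measured 6.75, 5.18 and 12.3 CPM in sham replicates 1, 2 and 3, and 22.3, 36.1 and 23.1 CPM in TAC replicates 1, 2 and 3. The groups did not overlap, and the highest sham library was replicate 3. Mt2 rose by 1.75 ± 0.34 on the log2 scale (SE; edgeR adjusted p = 0.0297), from 8.07 ± 3.73 to 27.2 ± 7.70 CPM (SD, n = 3 each). The direction held in all 15 alternatives, with log2 fold changes from 1.495 to 2.19, and the gene passed in 10 of them. The call was lost without sham replicate 1 (adjusted p = 0.0698), sham replicate 2 (0.123), TAC replicate 1 (0.0741) or TAC replicate 2 (0.0588), and with the replicate number as a block (0.0510).

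Mt1 lies just downstream on the same strand, at chromosome 8, 94179082 to 94180327. It was the more abundant of the pair, at 64.9, 64.9 and 114.5 CPM in sham and 110.5, 169.7 and 86.1 CPM in TAC. Sham replicate 3 exceeded both TAC replicates 1 and 3, so the groups overlapped, and Mt1 did not pass (log2 fold change 0.58 ± 0.30, edgeR adjusted p = 0.246). The ratio of Mt2 to Mt1 counts within a library, which no scaling between libraries can move, was 0.104, 0.0799 and 0.107 in sham and 0.202, 0.212 and 0.269 in TAC. This ratio was chosen after the values were seen and was not tested. It was higher in every TAC library than in any sham library. Trends with GC content and length were not taken out of it, and the longest transcripts of Mt2 and Mt1 are 511 and 1085 bases. Of the exonic bases of Mt2, 73.5% overlap Gm45774 on the other strand, a record with 37 to 90 estimated counts per library against 363 to 2280 for Mt2. The sources used here do not state a strand setting for the counting.

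**Figure D2:**
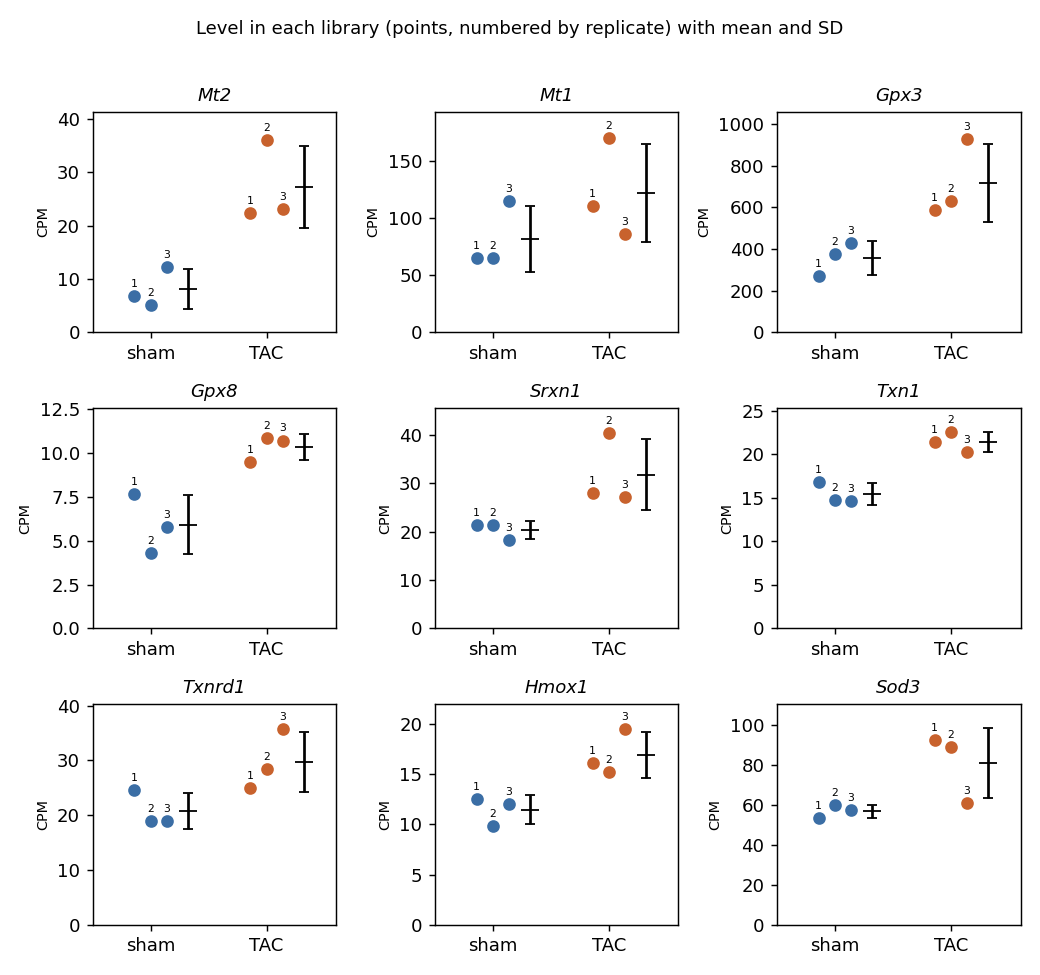
CPM (y axis, from 0) of 9 genes in each sham and TAC library (points, numbered by replicate), with the group mean and SD beside them. Mt2, Gpx3, Gpx8, Srxn1, Txn1, Txnrd1, Hmox1 and Sod3 have all 3 TAC points above all 3 sham points, and Mt1 overlaps.

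Glutathione peroxidases reduce peroxides with glutathione. Gpx3 (chromosome 11, 54902453 to 54910377, plus strand), which encodes the secreted plasma form, measured 269.8, 377 and 428 CPM in sham and 588, 632 and 931 CPM in TAC. TAC replicate 3 was the highest library and the lowest TAC library was above the highest sham library. Gpx3 rose by 1.0 ± 0.23 on the log2 scale (SE, n = 3 each; edgeR adjusted p = 0.0428). It kept its direction in all 15 alternatives (0.77 to 1.18) and passed in 7 of them. Of the 6 fits without 1 library, it passed only without TAC replicate 3 (log2 fold change 0.77, adjusted p = 0.0252). The adjusted p was 0.0853 and 0.161 without sham replicates 1 and 2, 0.0906 without sham replicate 3, and 0.0895 and 0.0653 without TAC replicates 1 and 2. In limma on log2(FPKM + 1) it was 0.0777, and with no filter on low values 0.0787.

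Gpx8, a membrane-bound peroxidase of the endoplasmic reticulum, measured 7.69, 4.31 and 5.77 CPM in sham and 9.50, 10.9 and 10.7 CPM in TAC. The groups were separate, and the log2 fold change was 0.81 ± 0.23 (edgeR adjusted p = 0.0696). With the GC and length trends removed it was 0.34 (adjusted p = 0.403), and without sham replicate 1 it was 1.06 and passed (adjusted p = 0.0476). Gpx8 also passed in DESeq2 (adjusted p = 0.0118). Gpx4, which repairs lipid peroxides in membranes, was the most abundant of the 32 genes per length, at 415 ± 81.4 FPKM in sham and 446 ± 88.6 FPKM in TAC. Its 723 ± 130 and 872 ± 227 CPM differed by less than the spread between replicates (edgeR adjusted p = 0.486). Gpx1, the cytosolic form, had a log2 fold change of 0.21 ± 0.14 (adjusted p = 0.354).

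The thioredoxin system recharges peroxiredoxins, with Txn1 and Txnrd1 as its cytosolic thioredoxin and reductase and Txn2 and Txnrd2 as the mitochondrial pair. None of its 5 genes passed. Txn1 measured 16.9, 14.7 and 14.7 CPM in sham and 21.4, 22.6 and 20.2 CPM in TAC, with separate groups (log2 fold change 0.47 ± 0.14, edgeR adjusted p = 0.0787). Without TAC replicate 3 it passed (adjusted p = 0.0402), as it did in DESeq2 (adjusted p = 0.0161). With the trends removed its log2 fold change was 0.20 (adjusted p = 0.399). Txnrd1 measured 24.5, 18.9 and 18.9 CPM in sham and 25.0, 28.4 and 35.7 CPM in TAC. These groups were separated by a gap of less than 1 CPM and overlapped in FPKM (log2 fold change 0.52 ± 0.19, adjusted p = 0.118).

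The mitochondrial pair had values below 0 that did not pass. Txn2 measured 297, 349 and 349.7 CPM in sham and 285, 317 and 212 CPM in TAC (log2 fold change -0.29 ± 0.18, edgeR adjusted p = 0.323), with TAC replicate 3 the lowest. Txnrd2 had -0.17 ± 0.18 (adjusted p = 0.580), which was 0.022 with the trends removed. Within each library, the ratio of Txn1 to Txn2 counts was 0.0568, 0.0422 and 0.0419 in sham and 0.0752, 0.0712 and 0.0956 in TAC, without overlap. The ratio of Txnrd1 to Txnrd2 was 0.430, 0.324 and 0.283 in sham and 0.410, 0.474 and 0.881 in TAC, with overlap. Both ratios were chosen after the values were seen and were not tested. Trends with GC content and length were not taken out of them. The longest transcripts of Txn1 and Txn2 are 47.2% and 53.5% GC.

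Srxn1 encodes sulfiredoxin, which restores overoxidized peroxiredoxins. It measured 21.3, 21.3 and 18.2 CPM in sham and 27.9, 40.3 and 27.1 CPM in TAC. All 3 TAC libraries were above sham, with TAC replicate 2 the highest, and the log2 fold change was 0.65 ± 0.19 (edgeR adjusted p = 0.0728). It passed with the trends removed (0.79, adjusted p = 0.0463), without TAC replicate 3 (0.75, adjusted p = 0.0252) and in DESeq2 (0.65, adjusted p = 0.0172), and in none of the other 12 alternatives.

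Hmox1 encodes heme oxygenase 1 and Nqo1 a quinone reductase, both classic NRF2 targets. Hmox1 measured 12.5, 9.82 and 12.04 CPM in sham and 16.1, 15.2 and 19.5 CPM in TAC, with separate groups (log2 fold change 0.56 ± 0.17, edgeR adjusted p = 0.0807). Of the 15 alternatives, Hmox1 passed only in DESeq2 (adjusted p = 0.0227). Nqo1 measured 25.6, 22.8 and 32.6 CPM in sham and 31.6, 33.4 and 49.4 CPM in TAC. Sham replicate 3 lay above TAC replicate 1, and Nqo1 did not pass (0.50 ± 0.22, adjusted p = 0.176). Without TAC replicate 3, its highest library, the log2 fold change of Nqo1 was 0.27.

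In glutathione synthesis, Gclm, the regulatory subunit of glutamate-cysteine ligase, had a log2 fold change of 0.36 ± 0.19 (edgeR adjusted p = 0.255), which was -0.15 with the trends removed. Gss, glutathione synthetase, had -0.07 ± 0.15, and the recycling enzyme Gsr, glutathione reductase, 0.35 ± 0.19 (adjusted p of 0.799 and 0.276). Gclc, the catalytic subunit of the ligase, was below the filter with estimated counts of 229, 129 and 102 for the sham libraries and 151, 168 and 355 for the TAC libraries. Gss was the highest of these genes per length, at 4.20 ± 0.540 FPKM in sham and 3.61 ± 0.251 FPKM in TAC. All 4 overlapped between the groups.

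Among the superoxide dismutases, Sod3, the secreted form, measured 53.4, 59.8 and 57.3 CPM in sham and 92.7, 89.0 and 60.9 CPM in TAC. TAC replicate 3 lay just above the highest sham library, and in FPKM below it. The log2 fold change was 0.51 ± 0.18 (edgeR adjusted p = 0.108), and without TAC replicate 3 it was 0.68 and passed (adjusted p = 0.00897). The cytosolic Sod1 had 0.15 ± 0.18 and the mitochondrial Sod2 -0.22 ± 0.17 (adjusted p of 0.646 and 0.431). Sod1 had a log2 fold change of -0.016 in limma on log2(FPKM + 1). The ratio of Sod1 to Sod2 counts was 0.325, 0.335 and 0.349 in sham and 0.403, 0.468 and 0.435 in TAC, a comparison chosen after the values were seen and not tested. GC and length trends were not taken out of that ratio either. Catalase, Cat, a peroxisomal enzyme, measured 77.6, 59.1 and 79.3 CPM in sham and 77.3, 80.7 and 153.6 CPM in TAC. Only TAC replicate 3 was above the sham libraries by more than 2 CPM, and the log2 fold change of 0.53 ± 0.27 (adjusted p = 0.244) was 0.13 without it.

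None of the 6 peroxiredoxins passed, and all 6 overlapped between the groups in CPM. Their log2 fold changes ran from -0.16 for Prdx2 to 0.19 for Prdx1, with adjusted p from 0.407 to 0.983. Prdx5, found in mitochondria, peroxisomes and cytosol, was the most abundant per length (237 ± 33.2 FPKM in sham, 191 ± 46.6 FPKM in TAC). It measured 439, 544 and 553 CPM in sham and 519, 572 and 305 CPM in TAC, the lowest value again in TAC replicate 3. Prdx3, the mitochondrial form, measured 154 ± 9.62 and 167 ± 25.7 CPM. The sign of the values for Prdx1, Prdx3, Prdx4, Prdx5 and Prdx6 changed in 1 or more alternatives.

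Prdx2 is abundant in red blood cells. It measured 463, 535 and 564 CPM in sham and 479, 536 and 386 CPM in TAC (edgeR adjusted p = 0.581). The 8 erythroid markers summed to 799, 460 and 1493 CPM in sham and 2242, 2305 and 979 CPM in TAC, and none of their 5 tested genes passed. Fewer cells of a type and less RNA per cell cannot be told apart in such bulk samples, and the part of blood in the Prdx2 values was not tested.

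NADPH oxidases pass electrons from NADPH to oxygen. Nox4, a catalytic subunit that needs no cytosolic activators, was near 0, with estimated counts of 0, 12 and 13 for the sham libraries and 42, 16 and 69 for the TAC libraries. Cybb, the catalytic subunit of phagocytes, had 52, 28 and 34 in sham and 67, 58 and 166 in TAC. For both, the TAC libraries were above the sham libraries, but they were below the filter and their values without a filter did not pass (log2 fold change 2.27 ± 0.98 and 1.29 ± 0.44, edgeR adjusted p of 0.249 and 0.155). Cyba, the membrane partner of both, was the most abundant at 39.0 ± 4.99 FPKM in sham and 33.1 ± 5.50 FPKM in TAC (log2 fold change -0.07 ± 0.20, adjusted p = 0.849). Ncf1, a cytosolic activator in phagocytes, measured 6.52 ± 1.09 and 6.52 ± 1.78 CPM. Of 12 macrophage markers 8 were tested and none passed. All 12 summed to between 507 and 578 CPM in the sham libraries and between 542 and 687 CPM in the TAC libraries, with the highest value in TAC replicate 3. The 6 neutrophil markers in the table summed to between 1.76 and 5.55 CPM in any library, with Ly6g at 0 in all 6. The part of these cells in the Cybb and Ncf1 values was not tested.

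Nnt, nicotinamide nucleotide transhydrogenase, makes mitochondrial NADPH from NADH. The inbred strain C57BL/6J is known to carry a deletion within this gene, and the labels call the mice wild type without naming a strain. The 2 records overlap almost entirely on the minus strand of chromosome 13, the longer at 119335448 to 119408997. Added together they measured 582, 483 and 325 CPM in sham and 397, 306 and 728 CPM in TAC. TAC replicate 3 was the highest of all 6 libraries and TAC replicate 2 the lowest. The longer record alone held 1561, 17972 and 16088 estimated counts for the sham libraries and 22754, 19377 and 51919 for the TAC libraries, so either record alone gives another picture than their sum. The difference was smaller than the spread between replicates (log2 fold change 0.04 ± 0.33, edgeR adjusted p = 0.951), and without TAC replicate 3 it was -0.40 (adjusted p = 0.254). In summed FPKM, which depends on the length assigned to each record, Nnt was 109.6 ± 53.9 in sham and 62.0 ± 34.0 in TAC. That difference had an adjusted p of 0.226 in limma on log2(FPKM + 1).

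**Figure D3:**
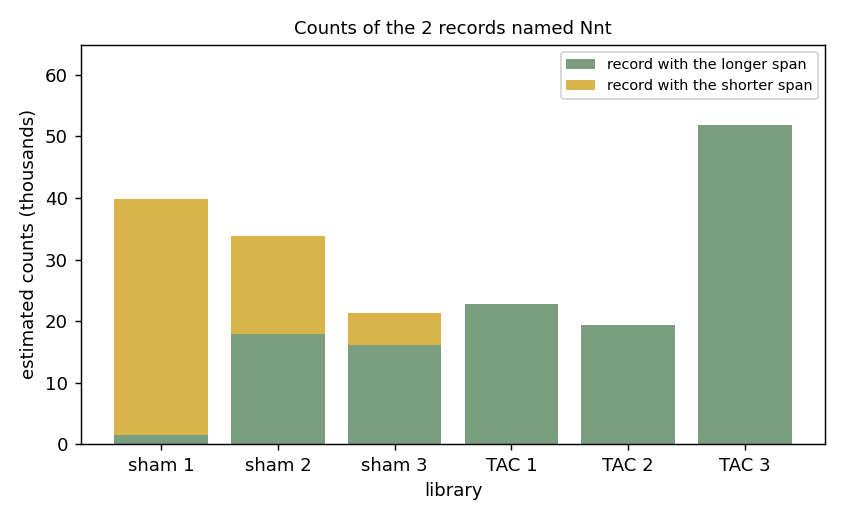
Estimated counts (y axis, stacked bars) of the 2 records named Nnt in each library (x axis). The record with the shorter span holds 38282, 15896 and 5229 counts in sham and 1, 0 and 0 in TAC.

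Glutathione S-transferases join glutathione to reactive compounds, and Gsta4 acts on lipid aldehydes. None of the 3 passed. Gstm1 was the most abundant, at 285 ± 70.7 FPKM in sham and 247 ± 15.9 FPKM in TAC, and measured 329, 407 and 539 CPM in sham and 404, 418 and 400 CPM in TAC. Its 3 TAC values lay inside the sham range. Gstp1 had a log2 fold change of -0.23 ± 0.21 and Gsta4 of 0.19 ± 0.15 (edgeR adjusted p of 0.526 and 0.448). Gstp1 has a near-identical neighbour, Gstp2, and Gstm1 lies in a cluster of similar genes, so their counts are uncertain. Gstp2 held between 1284 and 2299 estimated counts per library against 8310 to 14495 for Gstp1.

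In order of level per length, Gpx4, Gstm1, Prdx5, Gpx3 and Prdx2 led the 32 genes in sham. These 5 took between 51.9% and 59.6% of the summed FPKM of the 32 in each library. Of the 31 pairs of neighbours in that order, 23 had overlapping sham ranges, so most neighbouring ranks do not differ beyond their spread. In TAC, Gpx3 stood at position 2 instead of 4 (196 ± 45.6 FPKM in sham, 358 ± 124 FPKM in TAC) and Mt2 at position 14 instead of 23 (13.5 ± 6.10 and 41.0 ± 10.2 FPKM). Gclm was last in sham and Ncf1 in TAC.

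**Figure D4:**
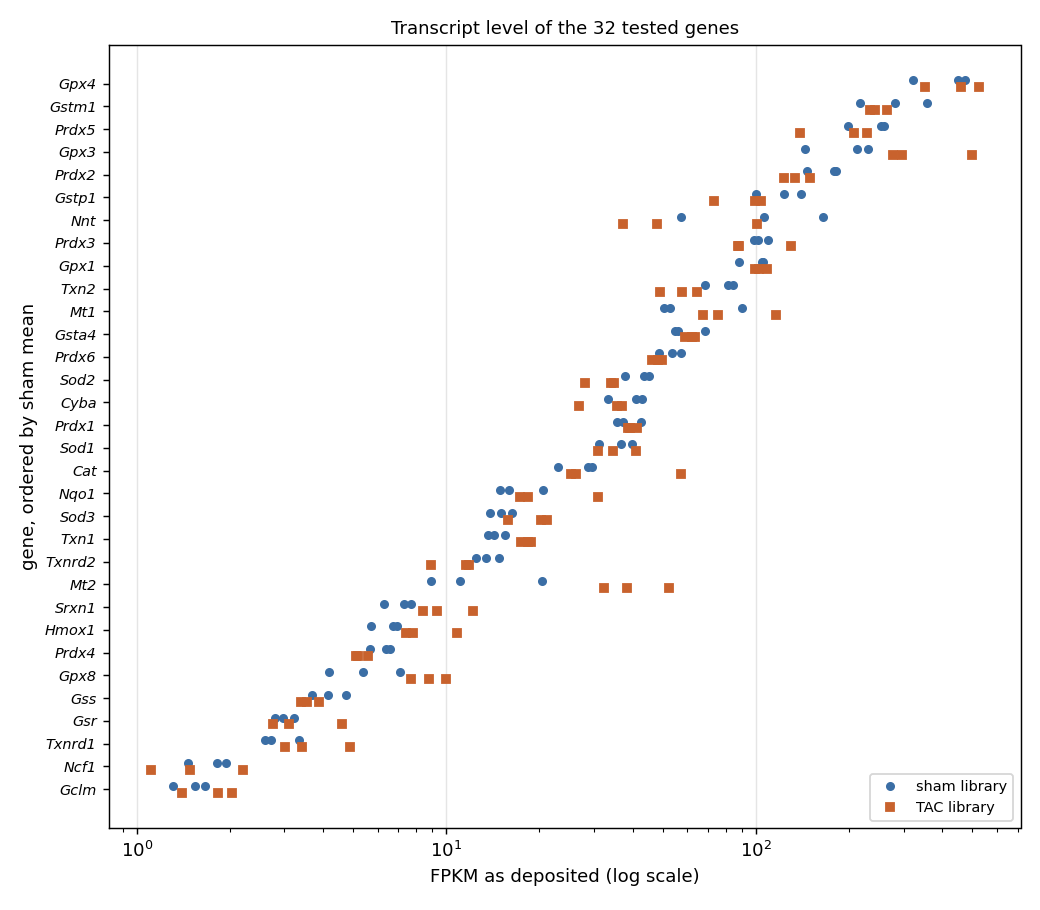
FPKM as deposited (x axis, log scale) of the 32 tested genes (y axis, ordered by sham mean) in each sham library (blue circles) and TAC library (orange squares). Mt2 and Gpx3 have TAC squares clear to the right of the sham circles, and for most other genes the groups overlap.

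A further 142 genes were listed by pathway and are together called further redox genes here. They include 16 glucocorticoid and hypoxia response genes and 9 other metallothionein and zinc genes. Of the 142, 107 were tested, 8 rose, 1 fell and 98 did not pass, against the same background of 4.72% and 2.29%. Among 15 tested glutathione S-transferases outside the 35, Mgst1, a membrane-bound enzyme, rose from 9.42, 11.5 and 16.3 CPM to 30.3, 27.8 and 32.9 CPM (log2 fold change 1.29 ± 0.22, edgeR adjusted p = 0.0250). Gsta1 rose from 0.350, 0.228 and 1.01 CPM to 2.89, 1.99 and 2.40 CPM (2.201 ± 0.51, adjusted p = 0.0417) and belongs to a family of near-identical copies, so its counts are uncertain. In sham, Gsta1 had a mean of 0.527 FPKM, from 24, 16 and 66 estimated counts. It reached the filter of 1 only through TAC, so its entry into the test depended on its higher TAC values. Mgst1 passed in 4 of 6 fits without 1 library, and Gsta1 in 2.

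Among 16 tested genes of selenium supply and other selenoproteins, Selenop and Selenot rose. Selenop, which carries selenium in plasma, went from 51.3, 34.0 and 48.6 CPM to 82.2, 68.9 and 100.5 CPM (log2 fold change 0.91 ± 0.20, edgeR adjusted p = 0.0388). Selenot, of the endoplasmic reticulum, rose by 0.77 ± 0.17 (adjusted p = 0.0387). Among 24 tested thiol redox genes Txnl1 (0.67 ± 0.15) and Txndc17 (0.76 ± 0.16), both thioredoxin-like, rose. With the GC and length trends removed, log2 fold changes were 0.04 for Txnl1, 0.14 for Selenot, 0.26 for Txndc17 and 0.48 for Selenop, and none of the 4 passed.

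Of 17 tested NRF2 regulators and further targets, Cul3, the ubiquitin ligase scaffold that works with KEAP1, rose (0.96 ± 0.21, edgeR adjusted p = 0.0356) and 16 did not pass. Without the GC and length trends its log2 fold change was 0.33. Of 13 tested NADPH supply genes, Me3, mitochondrial malic enzyme, fell from 153.8, 175.9 and 159 CPM to 113.6, 97.3 and 120.1 CPM (-0.56 ± 0.14, adjusted p = 0.0467). In the 15 tested glucocorticoid and hypoxia response genes, Bnip3, a mitochondrial receptor for autophagy, rose (1.33 ± 0.28, adjusted p = 0.0350), with 0.77 (adjusted p = 0.116) once the trends were removed. None of 5 tested further NADPH oxidase genes passed (Poldip2 was the most abundant, log2 fold change -0.37, adjusted p = 0.124), and neither did the 2 tested zinc genes (Slc39a7 had 0.12, adjusted p = 0.564). Of these 9 called genes, each lost its call without sham replicate 2 and without TAC replicate 1. Most lost it in other fits too. Of the 6 fits without 1 library, Cul3 and Bnip3 passed in 2, and Me3, Txnl1, Txndc17, Selenop and Selenot in 1.

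Some markers of other cell types also passed. Of 9 fibroblast markers, whose median log2 fold change was 0.85, Dcn, Lum, Pi16 and Postn rose. Postn had a mean of 0.199 FPKM in sham and 3.57 FPKM in TAC, so it reached the filter of 1 only through TAC. The same holds for Pdgfra (0.735 and 1.37 FPKM), which did not pass but enters the median. The summed level of the 9 was between 2595 and 2690 CPM in sham libraries, 2583 and 2560 CPM in TAC replicates 1 and 2, and 3195 CPM in TAC replicate 3. Gsn took between 58.2% and 83.3% of that sum, and without it the other 8 summed to 524, 453 and 434 CPM in sham and 668, 642 and 1334 CPM in TAC, every TAC library above every sham library. Of 8 endothelial markers Tek rose, and of 8 smooth muscle and pericyte markers Cnn1 and Rgs5 rose. Cnn1, at 0.707 FPKM in sham and 2.04 FPKM in TAC, likewise reached the filter only through TAC. Endothelial markers summed to between 990 and 1138 CPM in sham libraries, 1429 and 1426 CPM in TAC replicates 1 and 2 and 897 CPM in TAC replicate 3, and smooth muscle markers to between 420.2 and 486 CPM in sham and between 489 and 559 CPM in TAC. Lymphocyte markers summed to at most 4.19 CPM and adipocyte markers to at most 5.91 CPM in any library. Of 8 atrial markers Nppa rose and 5 other tested genes did not pass, and the list's median log2 fold change was -0.77. Without Nppa the list summed to 38.7, 263 and 152 CPM in sham and 146, 18.6 and 49.1 CPM in TAC, so the groups overlapped. The part of any of these cells in the values of Gpx3, Sod3, Gpx8 or Mt2 was not tested.

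**Figure D5:**
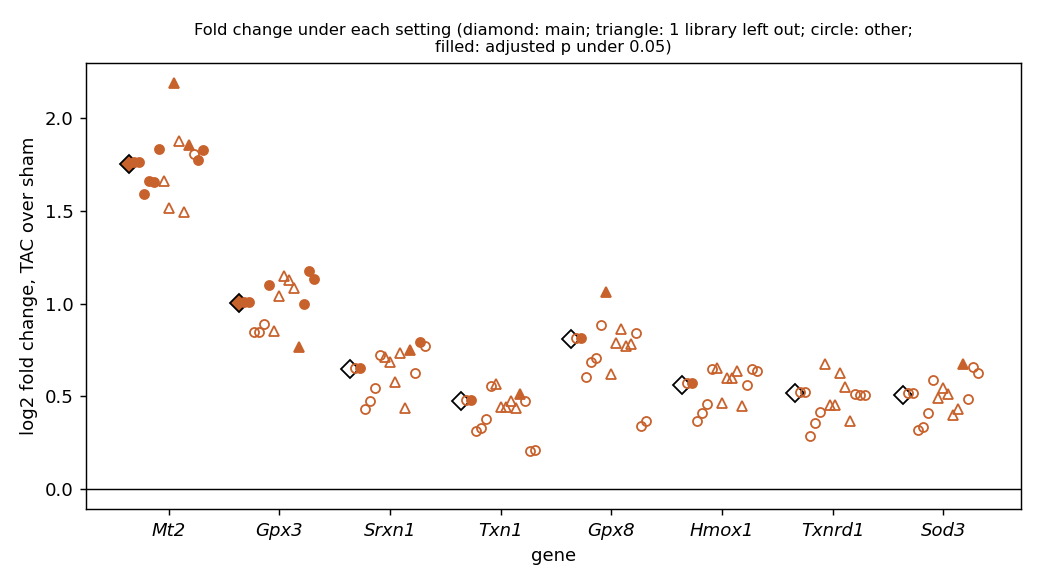
Log2 fold change of TAC over sham (y axis) of 8 genes (x axis) in the main fit (diamond), in fits without 1 library (triangles) and under other settings (circles), filled where the adjusted p was under 0.05. All points lie above 0, and of the 8 genes Mt2 and Gpx3 have the most filled points, 10 and 7 of 15 alternatives.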

How the data were processed

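Per the labels' protocols, Trizol RNA was selected with oligo(dT) beads and the second cDNA strand carried dUTP. The submitters' processing notes name cutadapt 1.9, HISAT2 2.0.4, StringTie 1.3.4d and the build GRCm38. The annotation release and the counting method are not stated in these sources. The authors deposited FPKM and whole-number estimated counts per gene, per the file headers.

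The 2 Nnt records were summed, genes whose mean FPKM reached 1 were kept, and groups were compared with edgeR 4.0.16 in R 4.3.3 (TMM, glmQLFit, glmQLFTest, Benjamini-Hochberg over all 8794 genes). A standard error is the log2 fold change divided by the square root of F. CPM use TMM library sizes. Alternatives were DESeq2 1.42.0 or its size factors, limma 3.58.1 on log2(FPKM + 1) and log2(FPKM + 0.1), other filters, leaving out each library, the replicate number as a block, and lowess removal of trends over the GC content and length of each gene's longest GENCODE M21 transcript. The fit was tested on simulated data.

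The members, lists and naming rule were chosen with earlier results of these data known. Named were all 35 members, up to 3 called genes per further list (the most abundant where none was called), and called markers. Other markers named, and sums without 1 marker, were chosen after their values were seen.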

Additional observations from a re-analysis of the deposited data

How the results depend on the processing

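None of the 32 genes was called lower in any alternative, 17 kept the sign of their log2 fold change in all 15, and 13 changed it. Gsr and Txnrd1 kept it in the 14 that could be run for them, being under the stricter filter. Calls were made for 7 genes in 1 or more alternatives and for none in every one. In DESeq2 6 of the 32 genes rose, 14 further redox genes rose and 3 fell, and 1031 of all genes rose and 615 fell. In limma on log2(FPKM + 1) 1 of the 32 genes rose, 5 further redox genes rose and 3 fell, and 174 of all genes rose and 336 fell, and on log2(FPKM + 0.1) 1 of the 32 genes rose, 5 further redox genes rose and 3 fell, and 170 of all genes rose and 335 fell. With no filter 1 of the 32 genes rose, 1 further redox genes rose and 0 fell, and 162 of all genes rose and 119 fell, and with a mean FPKM of 5 or more 2 of the 32 genes rose, 3 further redox genes rose and 0 fell, and 143 of all genes rose and 67 fell. With the trends over GC content and length removed 3 of the 32 genes rose, 2 further redox genes rose and 2 fell, and 243 of all genes rose and 223 fell. Leaving out 1 library gave 0 to 5 of the 32 genes higher, 0 to 11 further redox genes higher and 0 to 5 lower, and 9 to 815 of all genes higher and 2 to 893 lower, with the highest counts without TAC replicate 3 and the lowest of all genes without sham replicate 2. With the replicate number as a block 1 of the 32 genes rose, 5 further redox genes rose and 0 fell, and 141 of all genes rose and 41 fell, and with the block and the trends removed 2 of the 32 genes rose, 2 further redox genes rose and 0 fell, and 115 of all genes rose and 58 fell. Samples of the same number did not deviate together (correlations -0.186, 0.195 and -0.146), so the pairing rests on a number alone. The sign of the log2 fold change turned as follows, in values none of which passed. It was -0.016 for Sod1, -0.044 for Prdx3, -0.14 for Prdx6, -0.093 for Ncf1 and -0.82 for Nnt with limma with 1 added. It was -0.017 for Sod1, -0.045 for Prdx3, -0.15 for Prdx6, -0.16 for Ncf1 and -0.83 for Nnt with limma with 0.1 added. It was -0.095 for Prdx6, -0.10 for Ncf1 and -0.071 for Nnt with no filter. It was 0.0014 for Prdx4, 0.0056 for Cyba and 0.026 for Gstm1 with the filter at 5. It was -0.021 for Ncf1 and -0.032 for Nnt with the block. It was -0.15 for Gclm, 0.022 for Txnrd2, -0.33 for Prdx1, -0.26 for Prdx3, -0.053 for Prdx6, -0.0085 for Nnt and 0.016 for Gstm1 with the trends removed. It was -0.16 for Gclm, 0.0040 for Txnrd2, -0.33 for Prdx1, -0.28 for Prdx3, -0.060 for Prdx6, -0.046 for Nnt and 0.029 for Gstm1 with the block and the trends removed. Leaving out 1 library gave ranges of -0.12 to 0.037 for Gss, -0.0075 to 0.29 for Sod1, -0.022 to 0.18 for Prdx3, -0.15 to 0.0035 for Prdx4, -0.31 to 0.092 for Prdx5, -0.051 to 0.092 for Prdx6, -0.19 to 0.11 for Cyba, -0.22 to 0.18 for Ncf1, -0.40 to 0.28 for Nnt and -0.19 to 0.15 for Gstm1. The cause of these changes was not tested. Counting error was not set against the spread between libraries. The lowest counts among the 35 genes were those of Nox4, at 0 to 69 estimated counts a library, and Cybb, at 28 to 166.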
